A study of Homo sapiens with 12 samples.

Results

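The regions described here are the ac4C-enriched stretches of RNA in 59 protein-coding genes that each carried 10 or more peaks in every one of 6 libraries. Overlapping peaks on the same strand, with 1 shared base as the minimum, were pooled over the libraries and merged into regions, and a region belonged to a gene when its midpoint lay in the span of that gene on the same strand. The 59 genes held 1180 of 41755 regions, and 12283 genes carried any peak. They were chosen by measured values, namely the number of peaks in all 6 libraries, so the peak numbers themselves and the presence of many regions in every library are given as a description without a test.

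Acetylated RNA immunoprecipitation sequencing (acRIP-seq) was carried out in SW620 cells, an established line from a human colorectal cancer. The 3 control libraries (replicates 1 to 3) came from wild-type cells carrying a control short hairpin RNA (shControl), and 3 libraries came from cells with NAT10 knocked down by a hairpin (shNAT10). Both were lentiviral lines, and the hairpin used for these libraries and the independence of the cultures are not given in the sources used here, so the p-values cover only the spread between these libraries. The question behind the comparison was which ac4C peaks depend on NAT10. Each list gives a position, a strand and a score for every peak but no reads, which leaves the depth behind a peak unknown and allows no counting interval. The input libraries were not analysed here, and less modification of a transcript cannot be told apart from less of the transcript.

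N4-acetylcytidine (ac4C) is an acetylated form of cytidine in RNA, and NAT10 is the enzyme known to write it on ribosomal, transfer and messenger RNA. An antibody against ac4C pulls down short RNA fragments, and a stretch where such fragments pile up is listed as a peak. Exons are joined in a spliced mRNA but lie apart in the genome, so signal along 1 such transcript is listed as separate blocks. The mark has been tied to the stability and translation of the mRNAs that carry it.

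The ends of the regions were repeated from library to library, and the sequence around the few ends that reference sequence covers is shown first, because it lets the ends be seen to the base. Of the 536 regions present in all 6 libraries, 529 had 1 peak in each library. In 476 of those both ends were identical in all 6 libraries, and at least 1 end was identical in 528. Over all 8758 such regions of the series, both ends were identical in 6334 (72.3%). Introns usually end in AG and begin with GT. RefSeq promoter windows of GRCh38.p14, which run from 250 bases before to 50 bases after an annotated start, wholly contain 3 of the 1180 regions inside the start of another transcript, and these 3 are printed in lower case with the 2 bases outside each end in capitals, read 5′ to 3′ on the strand of the gene.
WNK2, a WNK-family kinase, region chr9:93268627-93268746: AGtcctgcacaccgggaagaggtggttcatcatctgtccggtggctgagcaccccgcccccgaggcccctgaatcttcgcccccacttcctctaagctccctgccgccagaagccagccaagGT
SVIL, supervillin, an actin- and myosin-binding protein, region chr10:29512735-29512861: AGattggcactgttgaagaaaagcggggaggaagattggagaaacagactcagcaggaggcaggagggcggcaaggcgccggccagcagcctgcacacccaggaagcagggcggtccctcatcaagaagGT
MAD1L1, a spindle checkpoint protein, region chr7:1980453-1980541: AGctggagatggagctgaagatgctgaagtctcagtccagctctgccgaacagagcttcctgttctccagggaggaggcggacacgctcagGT

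All 3 of these stretches followed AG and preceded GT. The WNK2 and SVIL regions were present in 6 libraries and the MAD1L1 region in 1 library. Their G and C content was 65% in WNK2, 60.6% in SVIL and 58.4% in MAD1L1. The motif CNNCNNCNNCNN, a C and any 2 bases repeated 4 times, started at 4 places in the WNK2 stretch on the strand of the RNA and at 0 places in SVIL and MAD1L1, with 1, 2 and 8 starts on the opposite strand. Overlapping matches were counted. Stretches of the same lengths taken from all 35116 windows held the motif in 51.5%, 53.0% and 41.7%, so its presence or absence here is common. CCG occurred 5 times in WNK2, 1 time in SVIL and 1 time in MAD1L1, and it was found in 69.3%, 70.2% and 63.97% of the stretches of matching length. On the opposite strand CCG occurred 2, 4 and 1 times.

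Windows covered the 2 bases outside the 5′ end of 45 of the regions, and 11 of these ends followed AG, 8 of them among the 28 ends of regions in all 6 libraries. AG made up 7.26% of all neighbouring pairs of bases in the windows. The 3′ end was covered for 5 regions and all 5 preceded GT, which made up 4.62% of the pairs. The next lines give 30 bases around 5 of the 5′ ends that followed AG, with the 15 bases inside the region in capitals.
ARHGEF10L, a guanine nucleotide exchange factor, chr1:17580538-17580567: gtcttctttccacagGTGTGTAGCTGGGAC
MICAL3, an actin-oxidising monooxygenase, chr22:17906872-17906901: ctttctttttgtcagATTAACGTGACAGTG
RIMBP2, a synaptic adaptor, chr12:130628442-130628471: tacttcttcccgcagCTTGGAAATGACCCG
SMARCA4, the BRG1 ATPase of SWI/SNF complexes, chr19:10984106-10984135: aggactgtcttccagCAGGAGGCCACTGTC
PRRC2B, an RNA-binding protein, chr9:131394078-131394107: cgagcggcgagacagGCGCCGAGGCTCCAC

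The ends in ARHGEF10L, MICAL3 and RIMBP2 also coincided to the base with a start site that RefSeq lists for the gene, as did those of 1 region in KDM4B and 1 in MCF2L. Promoter windows were found for 48 of the 59 genes. Exon annotation was not used here, so the share of regions that are whole exons was not computed, and these letters are a description of the ends and not a splice site.

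The lists of the 6 libraries differed in length. The control lists held 18241, 22619 and 20063 peaks, and the knockdown lists held 28752, 17877 and 19047. Knockdown replicate 1 was the longest. Of 16 colorectal epithelial markers 7 had a peak in all 6 libraries, among them EPCAM, CDH1, CDX2 and VIL1, while KRT18, KRT20, CDX1 and GPA33 had none. No marker of leukocytes, fibroblasts or endothelium out of 10 each had a peak in all 6. A peak in some but not all libraries was found for 2 leukocyte, 2 fibroblast and 5 endothelial markers, and for 5 epithelial ones. NAT10 itself carried 1, 0 and 2 peaks in the controls and 2, 0 and 1 in knockdown libraries, and a number of peaks in its gene does not measure the depth of the knockdown.

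The 59 genes were spread over 20 chromosomes, with 8 on chromosome 19, 7 on chromosome 1, 6 on chromosome 7 and 5 on chromosome 20. Their mean number of peaks was 10.3 or more with a median of 14.3, against a median of 1.17 over all genes with a peak. In the control libraries 788, 879 and 857 peaks lay in them, and in the knockdown libraries 1002, 852 and 878. That was 841 ± 47.5 (SD, n = 3) against 911 ± 80.2 (SD, n = 3), and the groups overlapped. The rule used these numbers, so they were not tested. As a share of each list the peaks in the 59 genes made up 4.32%, 3.89% and 4.27% in the controls and 3.48%, 4.77% and 4.61% in knockdown libraries.

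**Figure D1:**
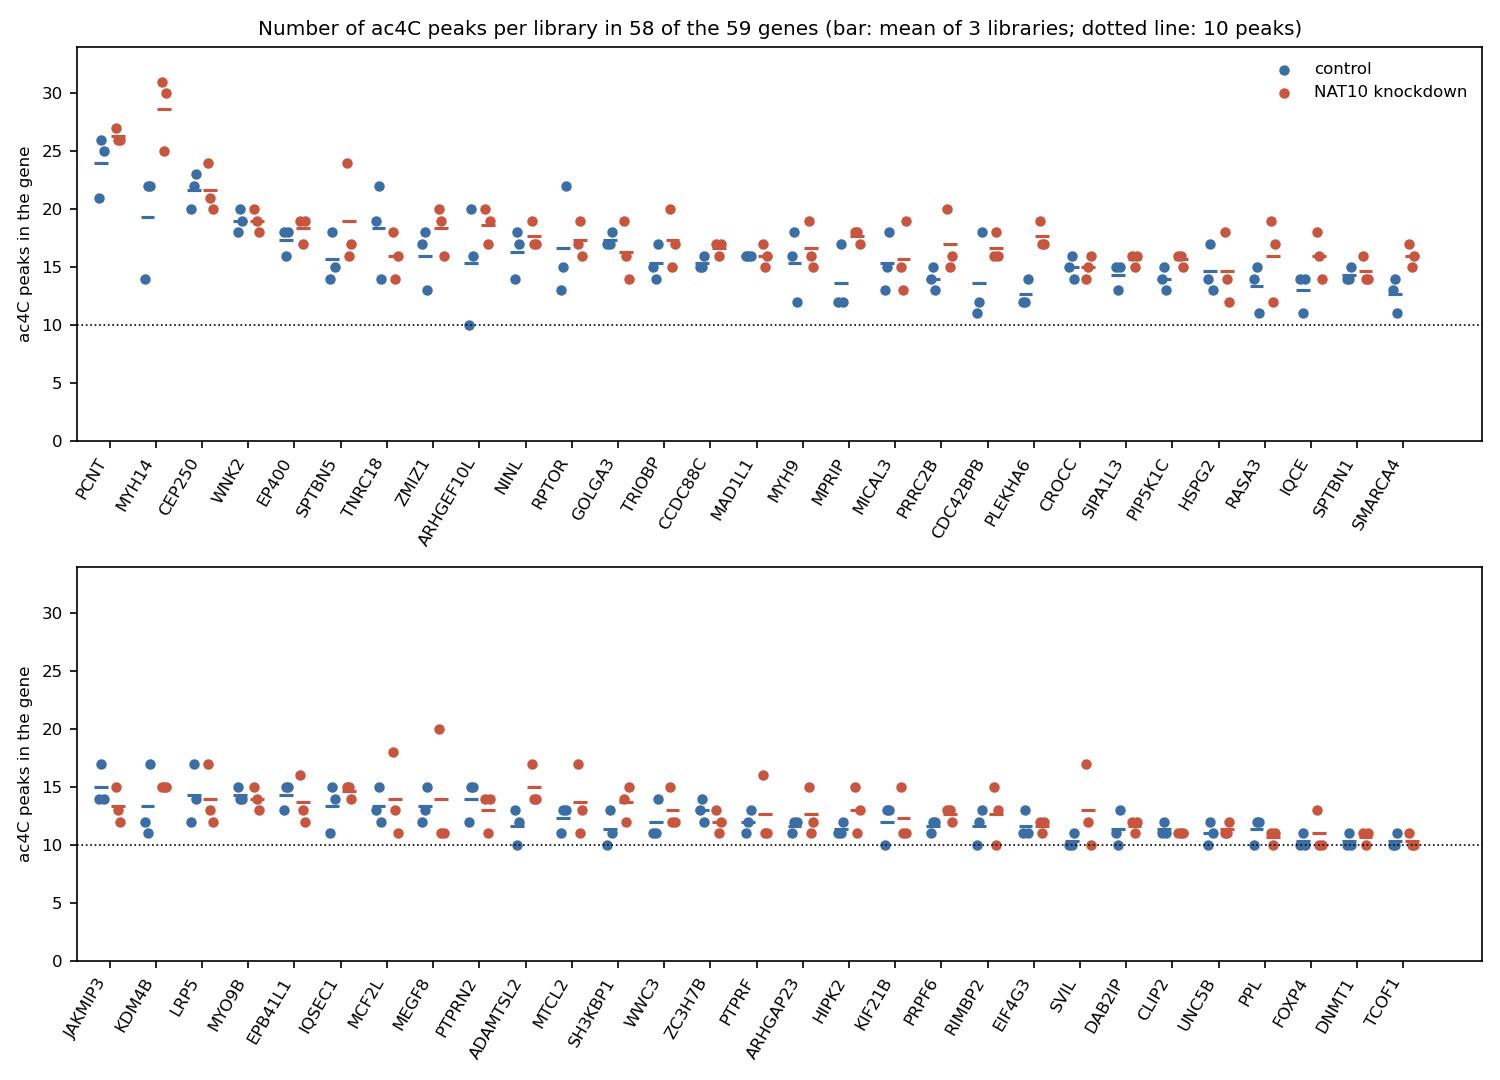
Number of ac4C peaks in 58 of the 59 genes, ordered by the mean over 6 libraries; each point is 1 library (blue control, red NAT10 knockdown), each bar is the mean of 3 libraries, and the dotted line marks 10 peaks. PCNT carries 21 to 27 peaks, and MYH14 shows 14 to 22 peaks in the controls and 25 to 31 in knockdown libraries.

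PCNT, pericentrin, a scaffold of the pericentriolar material, carried 21, 26 and 25 against 27, 26 and 26 peaks. Its groups overlapped. CEP250, which links the centrioles of a centrosome, carried 20, 22 and 23 against 24, 21 and 20 peaks, and 18 of its 26 regions were in all 6 libraries. WNK2 carried 18, 20 and 19 against 20, 19 and 18 peaks, with 17 of 23 regions in all 6.

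Spans as long as theirs were also found in other genes. The median span was 129 kb in the 59 genes, 73.6 kb in the 360 genes whose lowest count was 5 to 9, and 30.9 kb in all genes with a peak. In all, 1623 other genes spanned at least as much as the median of the 59. Span includes introns, and a link of exon number or spliced length to the number of peaks was not tested. Across the 12283 genes Spearman's rank correlation between span and mean number of peaks was 0.242, and 0.151 within the 59, where genes are not independent replicates. TCOF1, the nucleolar protein treacle that serves ribosomal RNA synthesis, reached 10 peaks in the shortest span of 42.6 kb, whereas PTPRN2, a phosphatase-like receptor of secretory vesicles, spread 11 to 15 peaks over 1049 kb.

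**Figure D2:**
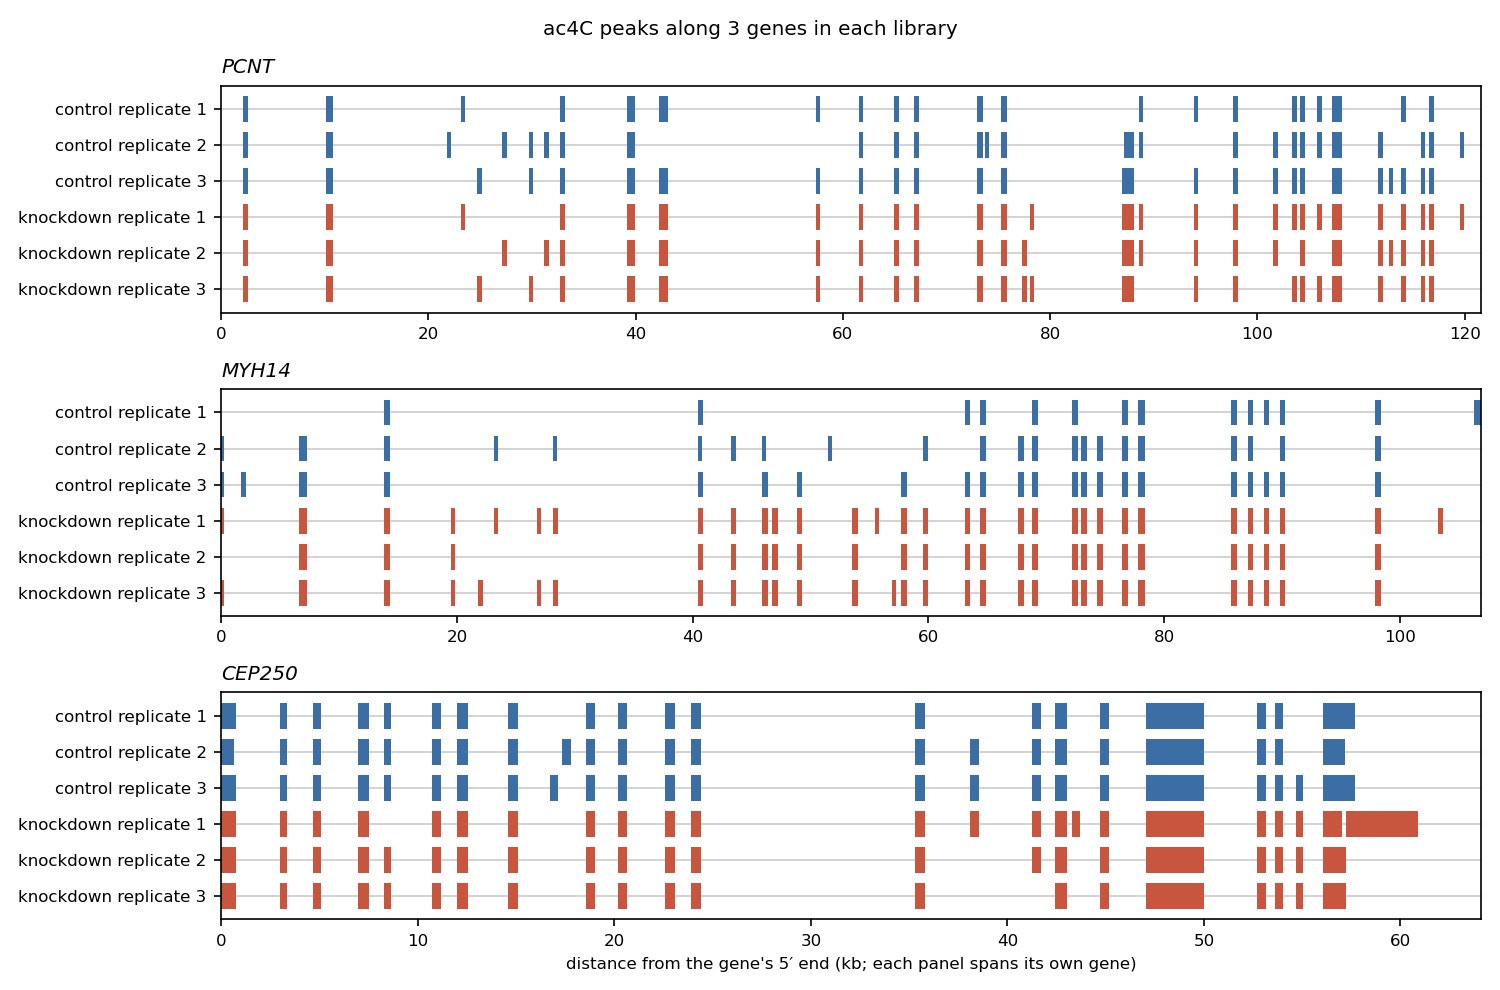
Position of every ac4C peak along PCNT, MYH14 and CEP250 in each library, in kb from the 5′ end of the gene; each block is 1 peak, drawn 0.3 kb wider than measured so that it can be seen, and each panel spans its own gene. The blocks stand in the same columns in most libraries, and columns present only in the 3 knockdown libraries can be seen in MYH14.

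Centrosome, microtubule and other coiled-coil genes made up 13 of the 59, a grouping by known role that was drawn up after the members were known. Together they carried 193, 210 and 211 peaks in the controls and 233, 203 and 204 in knockdown libraries, and 140 of their 264 regions were in all 6 libraries. The list of mitosis and centrosome genes held 15 genes, of which 2 were members, PCNT and CEP250. Over all genes with a peak, 59 of 12283 were members. NINL, a ninein-like protein of the centrosome, carried 14, 18 and 17 against 19, 17 and 17 peaks. CROCC, rootletin of the ciliary rootlet, carried 15, 16 and 14 against 14, 15 and 16. The remaining genes of that list carried at most 8 peaks, such as the spindle protein NUMA1 with 4 to 8, MKI67 with 2 to 3 and CENPE with 0 to 1.

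Actomyosin, spectrin and membrane-skeleton genes numbered 10, with 131, 155 and 146 peaks in the controls and 182, 151 and 158 in knockdown libraries. Of their 231 regions 34.6% were in all 6 libraries, the lowest share of the 6 role groups. Among the 29 genes of the list of cytoskeletal linkers and motors 4 were members, GOLGA3, MYH14, MYH9 and SPTBN1. MYH9, the heavy chain of nonmuscle myosin IIA, carried 16, 18 and 12 against 19, 16 and 15 peaks. SPTBN1, the common beta-spectrin, carried 14, 14 and 15 against 16, 14 and 14. SPTBN5, the largest beta-spectrin, carried 14, 18 and 15 against 24, 16 and 17. In none of these 3 genes did the groups separate. PLEC, a plakin of the same list, carried only 3 to 5 peaks.

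Chromatin and transcription genes numbered 9 and held 137, 144 and 131 peaks in the controls and 158, 136 and 145 in knockdown libraries, with 100 of 175 regions in all 6. From the list of 34 chromatin remodellers and coactivators, members included EP400 and SMARCA4. EP400, an ATPase of the TIP60 histone acetyltransferase complex, carried 18, 16 and 18 against 19, 17 and 19 peaks. ZMIZ1, a transcriptional coactivator related to PIAS proteins, carried 17, 18 and 13 against 20, 19 and 16. SRCAP, an ATPase of the same list, carried 7 to 11. Scores of many peaks sit at exactly 3100, the value at which the scale piles up, so order among the highest peaks is lost. Higher scores occurred, such as 3206.75 for a CEP250 peak in knockdown replicate 2. In 56 of the 536 regions in all 6 libraries the score was at least 3100 in every library. Of these, 29 lay in chromatin and transcription genes, among them 8 in TNRC18 and 7 in SMARCA4. In all, 26 of the 56 lay in 3 genes, while EP400 and ZMIZ1 had none. The same count was not made over all regions. By library, 9.9% to 22.9% of the peaks in the 59 genes scored 3100 or more, against 7.56% to 13.6% in other genes. SMARCA4 had 8 regions in all 6 libraries, so 7 of its 8 stood at 3100 or more throughout. TNRC18, a chromatin-associated protein with a BAH domain, had the score 3100 in every library in a region of 1665 bases at chr7:5387672-5389336. FOXP4, PRRC2B and TCOF1 had 3 such regions each, and 37 of the 59 genes had none.

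Among genes of GTPase regulation and signalling, 15 in all, 122 of 294 regions were in all 6 libraries. They carried 184, 210 and 217 peaks in the controls and 247, 217 and 223 in knockdown libraries. RPTOR, the raptor scaffold of mTOR complex 1, carried 13, 15 and 22 against 17, 19 and 16 peaks but had only 4 regions in all 6. ARHGEF10L carried 10, 20 and 16 against 20, 17 and 19. The 7 genes of the cell surface and matrix carried 84, 96 and 93 against 113, 85 and 86 peaks. They included LRP5, a Wnt coreceptor, at 12, 17 and 14 against 17, 13 and 12, the phosphatase PTPRF at 11, 12 and 13 against 16, 11 and 11, and HSPG2, the basement membrane protein perlecan, at 14, 17 and 13 against 18, 14 and 12. The 5 genes of RNA processing and translation carried 59, 64 and 59 against 69, 60 and 62. PRRC2B carried 14, 15 and 13 against 20, 15 and 16 peaks, and EIF4G3, a translation initiation factor, 11, 13 and 11 against 12, 11 and 12.

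None of the 15 colorectal tumour suppressors and oncogenes of the list was a member. TCF7L2, the Wnt effector, came nearest with 5 to 8 peaks, while CTNNB1 had 0 to 1 and APC 1 to 2. There were also no members among 16 ubiquitin ligases, 16 histone methyltransferases, 16 PIKK kinases and DNA repair genes or 13 nuclear pore genes. Some of these genes came near, such as HECTD4 with 8 to 13 peaks, EHMT1 with 7 to 15 and NUP210 with 9 to 14. Only 59 of the 12283 genes with a peak were members, so lists of this size would seldom hold one. The absence of members is therefore not a result about these classes. The genes just inside the threshold were TCOF1 with 10, 10 and 11 against 11, 10 and 10 peaks, DNMT1, the maintenance DNA methyltransferase, with 10, 11 and 10 against 11, 10 and 11, and the forkhead factor FOXP4 with 10, 11 and 10 against 13, 10 and 10. Just outside it were the kinase TNIK (9, 15 and 17 against 19, 16 and 19), the endocytic receptor LRP1 (9, 12 and 17 against 18, 14 and 24) and the adaptor ANKS1A (9, 13 and 15 against 17, 14 and 17). All 3 missed it in control replicate 1 alone. The lowest count was 10 in 12 members and 9 in 25 genes outside, and 281 genes reached 10 in some but not all libraries.

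Sharing between libraries was higher in the 59 genes than in the series, which the rule favours. A peak in all 6 libraries was found in 45.4% of the 1180 regions, against 35.97% in the 360 genes with a lowest count of 5 to 9 and 22% of all regions. A peak in 1 library only was found in 11.9%, 18.9% and 38.7%. Of the 141 regions seen in a single library, 47 were in knockdown replicate 1 and 41 in control replicate 2, the pair with the longest lists. The mean Jaccard index over the 15 pairs of libraries, the share of regions present in either library that is present in both, was 0.715 over the members and 0.513 over all regions. It was 0.721 for the 6 pairs within a group and 0.711 for the 9 pairs between groups. The pairs of control libraries stood lower, at 0.677, 0.690 and 0.687, and the pairs of knockdown libraries higher, at 0.736, 0.737 and 0.797.

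**Figure D3:**
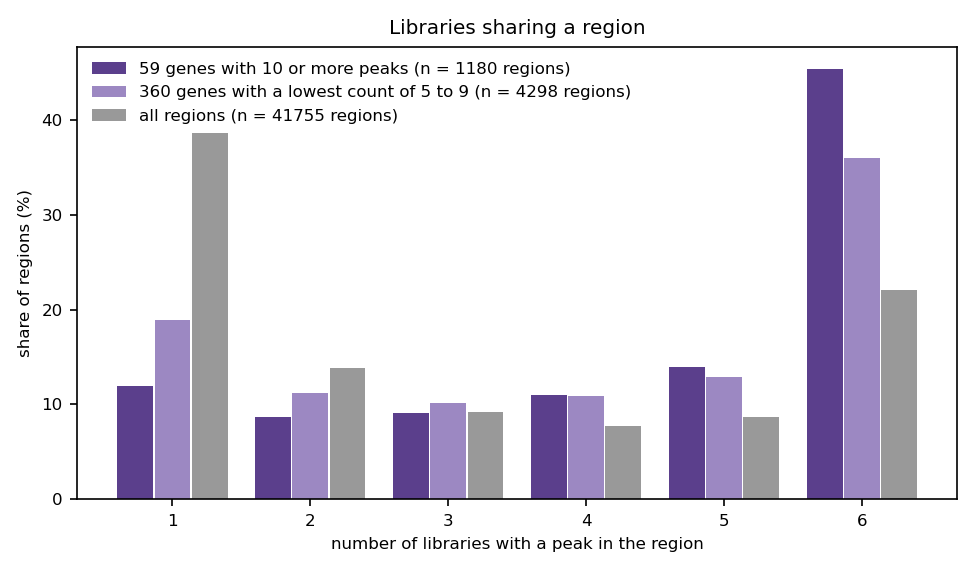
Share of regions (y axis, %) by the number of libraries with a peak in the region (x axis), for the 59 genes, the 360 genes with a lowest count of 5 to 9 and all regions. The bars of the 59 genes rise to 45.4% at 6 libraries, while those of all regions are highest, at 38.7%, for 1 library.

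Along the gene, the regions in all 6 libraries sat late. Of the 536, 67.2% lay past the middle of the gene and 8.96% in its first 10%, whereas in all other genes 39.0% lay in the first 10%. The stretch just before the last 10% of the gene alone held 102 regions (19.0%). In the 360 genes with a lowest count of 5 to 9 the shares were 55.8% past the middle and 16.1% in the first 10%. Counted by peaks within each library, the share past the middle was 70.2%, 71.4% and 71.2% in the controls and 72.6%, 71.0% and 71.3% in knockdown libraries for the 59 genes, and 61.1% to 64.5% for the 360. The difference was 8.82 ± 0.651 percentage points (SD, n = 6), above 0 in 6 of 6 libraries (p = 0.031 in a two-sided exact sign-flip permutation test, which cannot go lower with 6 libraries). For the share in the first 10% it was -4.98 ± 0.416 percentage points (SD, n = 6), below 0 in 6 of 6 libraries (same exact test, p = 0.031). Position was not used to choose the genes, but a gene with 10 separate peaks cannot hold them all at its start. Many regions are shared by the 6 libraries, which are therefore not independent checks. As an example of early peaks, MAD1L1 had 7 regions in all 6 libraries within the first 5% of its span.

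Neighbouring regions in all 6 libraries were separated by a median of 5048 bases over 477 gaps, with a smallest gap of 599 and a largest of 450739 bases. None was under 200 bases. The last such region of a gene was wider, with a median of 222 bases (quartiles 170.5 and 1578.5), than the 418 inner regions with 174 bases (quartiles 126 and 243). The last region exceeded the inner median of its gene in 40 genes. MCF2L had only 2 such regions and therefore no inner one. The widest of the 1180 regions spanned 9196 bases near the end of MTCL2, a microtubule crosslinking factor, at chr20:36777442-36786637, and joined up to 4 peaks of 1 library. HIPK2, a nuclear kinase, followed with 7991 bases and KIF21B, a kinesin, with 4746 bases in a region present in 4 libraries, both over 95% along the gene. CEP250 had its strongest region inside the gene, a single block of 2616 bases at chr20:35502390-35505005 with the score 3100 in all 6 libraries. NINL showed the same over 1047 bases at chr20:25476043-25477089.

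Peaks in the 59 genes were narrower than those in other genes. Their median width was 171.5, 162 and 170 bases in the controls and 162, 169.5 and 168 bases in knockdown libraries, against 187 to 228 bases in other genes. The difference was -46.3 ± 12.5 bases (SD, n = 6), below 0 in 6 of 6 libraries (two-sided exact sign-flip permutation test, p = 0.031). Set against the 360 genes with a lowest count of 5 to 9 it was -1.5 ± 1.34 bases (SD, n = 6; same exact test, p = 0.125), so the narrower width was shared by genes with a moderate number of peaks. Width was not used to choose the genes, but a wide block counts as a single peak, so the rule can favour narrow blocks. Many regions have the same ends in all 6 libraries, so the libraries are not independent checks. Between the groups the medians differed by -1.33 bases, knockdown minus control, within the spread (two-sided exact permutation test over 20 relabellings, n = 3 each, p = 0.6). That test cannot go below 0.1 with 3 libraries against 3.

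Their scores ranked higher. The median score percentile, the rank of a peak's score in its own library in percent, was 55.0, 64.7 and 68.9 in the controls and 67.6, 61.2 and 64.1 in knockdown libraries, against 48.7 to 49.2 in other genes. The difference was 14.7 ± 5.15 percentage points (SD, n = 6), positive in 6 of 6 libraries (two-sided exact sign-flip permutation test, p = 0.031). Against the 360 genes it was 5.6 ± 2.65 points (SD, n = 6), also positive in 6 of 6 (same exact test, p = 0.031), with the smallest value, 0.647, in control replicate 1. Scores were not used to choose the genes, but the rule asks for peaks in every library and may favour high scores, which was not tested. The 6 libraries share many regions of these genes, so they are not independent checks. Knockdown minus control was 1.42 percentage points, within the spread (exact permutation test, n = 3 each, p = 0.9). Without control replicate 1 this value turned to -2.5, and without knockdown replicate 1 to -0.246.

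**Figure D4:**
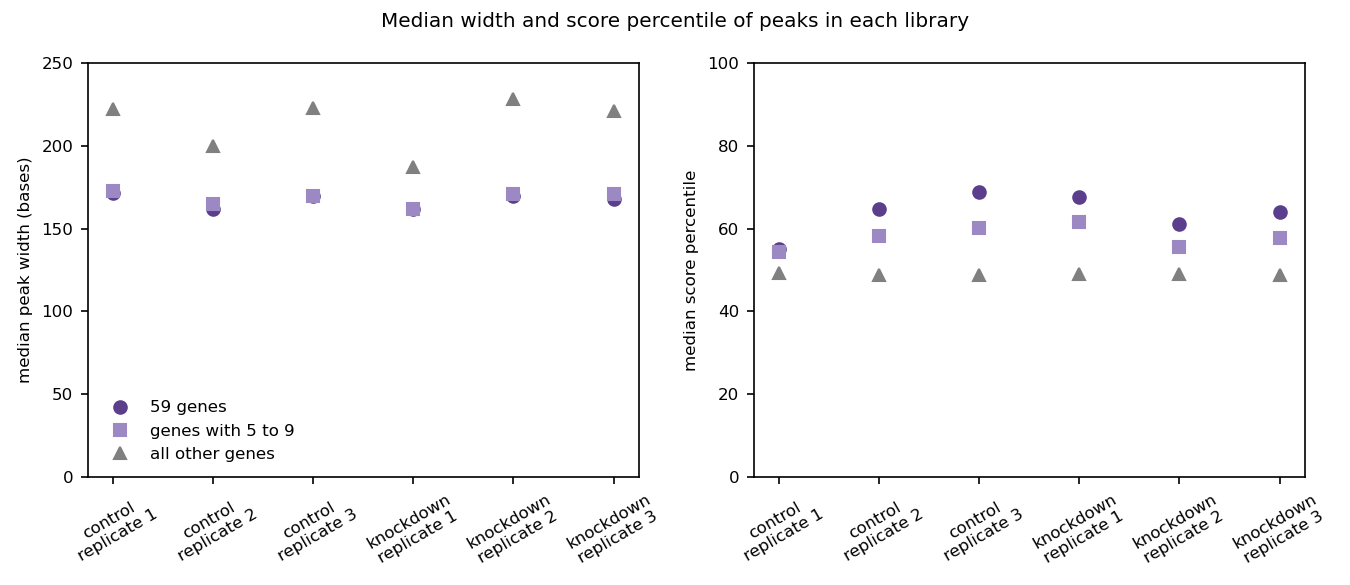
Median peak width in bases (left) and median score percentile (right) in each of the 6 libraries, for the 59 genes, genes with a lowest count of 5 to 9 and all other genes; each symbol is 1 library. Width in the 59 genes lies between 162 and 171.5 bases, next to the second set and below the third, and the percentile lies above the third set in every library.

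Few of the genes had separate groups in the number of peaks. In 4 of the 59 genes every knockdown library had more peaks than every control library, which is 6.78%, against 1.57% of all 12283 genes and 4.72% of the 360 genes with a lowest count of 5 to 9. The opposite was seen in 0 of the 59 and in 0.651% of all genes. Over all genes the median of the mean number of peaks was 1.17. Such low counts can tie between the groups, so the 360 genes are the closer comparison. The rule used peak numbers, so these 4 are described without a test. An exact permutation test of 3 libraries against 3 cannot go below 0.1 in any case. MYH14, the heavy chain of nonmuscle myosin IIC, carried 14, 22 and 22 peaks in the controls and 31, 25 and 30 in knockdown libraries (19.3 ± 4.62 and 28.7 ± 3.21, SD, n = 3). PLEKHA6, a protein with a pleckstrin homology domain, had 12, 12 and 14 against 19, 17 and 17. SMARCA4 had 13, 14 and 11 against 17, 15 and 16. ADAMTSL2, a secreted glycoprotein of the matrix, had 13, 10 and 12 against 17, 14 and 14.

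The mean number of peaks was higher in knockdown in 42 genes, lower in 10 and equal in 7. Knockdown replicate 1 had the highest count, ties included, in 44 genes, and without it 32 were higher, 26 lower and 1 equal. MPRIP, which binds myosin phosphatase, had 12, 17 and 12 against 18, 18 and 17 peaks, and its groups met at 17. TNRC18 had the most negative difference in means, at 19, 22 and 14 against 18, 14 and 16. JAKMIP3 (14, 17 and 14 against 15, 13 and 12), GOLGA3 (17, 17 and 18 against 19, 16 and 14), ZC3H7B (13, 14 and 12 against 13, 11 and 12) and PTPRN2 (12, 15 and 15 against 14, 11 and 14) followed, all with overlapping groups.

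Regions present in 3 libraries of one group and in none of the other were rare. Only 3 of the 1180 (0.254%) were limited to the control libraries, against 0.34% of all regions. They lay in SPTBN5 at chr15:41872302-41872459, with scores of 110.81, 173.85 and 519.97, in RPTOR at chr17:80883781-80883972, with 58.48, 62.53 and 257.48, and in CDC42BPB, the MRCK-beta kinase, at chr14:102949765-102949904, with 66.29, 194.04 and 171.49. The lowest of the 3 score percentiles was 27.7 in SPTBN5, 5.46 in RPTOR and 10.4 in CDC42BPB.

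Limited to the knockdown libraries were 13 regions (1.10%) in 11 genes, against 0.819% of all regions, so both shares were near the background. In MPRIP the region chr17:17176426-17176512 had the score 3100 in all 3 knockdown libraries, where no control library listed a peak. In PRRC2B the region chr9:131482710-131482907 had scores of 1157.71, 802.75 and 670.32. In MCF2L, a guanine nucleotide exchange factor of small GTPases, the region chr13:113014763-113014846 had 201.86, 714.69 and 1723.73. SMARCA4 had 1 at chr19:11023518-11023631 with 104.09, 342.58 and 369.84. MYH14 alone had 3, at chr19:50223247-50223349, chr19:50250515-50250688 and chr19:50257299-50257486, with lowest scores of 129.89, 132.28 and 78.33. Leaving out 1 library loosens the criterion, and the number limited to knockdown then ran from 17 to 42, the highest without control replicate 3. The number limited to control ran from 4 to 12, the highest without knockdown replicate 1.

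Score percentiles were also compared region by region over the 536 regions in all 6 libraries. In 46 (8.58%) every knockdown library ranked above every control library, against 6.98% of all 9195 such regions, and in 18 (3.36%) every one ranked below, against 3.23%. Both shares were near those of all regions. The genes and regions named below were picked after their values were seen and are examples only. The median difference was 3.34 percentage points in the members and 1.68 over all. Control replicate 3 mattered most to the higher regions, whose number rose from 46 to 147 without it, and control replicate 1 to the lower ones, which rose from 18 to 52.

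MYH14 was singled out after its values were seen. All 11 of its regions in all 6 libraries had a higher mean percentile in knockdown, and in 7 the groups did not overlap. The median over the 11 regions was 36.9, 39.2 and 57.9 in the controls and 76.0, 62.0 and 64.5 in knockdown libraries. At chr19:50217615-50217771 the percentiles were 3.83, 10.3 and 9.3 in the controls and 37.6, 56.5 and 33.4 in knockdown libraries, near the bottom of the control lists and closer to the middle of the knockdown lists. At chr19:50281594-50281842 they were 66.7, 67.7 and 72.1 against 100, 78.9 and 84.2. This was also the gene with the most regions limited to the knockdown libraries.

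**Figure D5:**
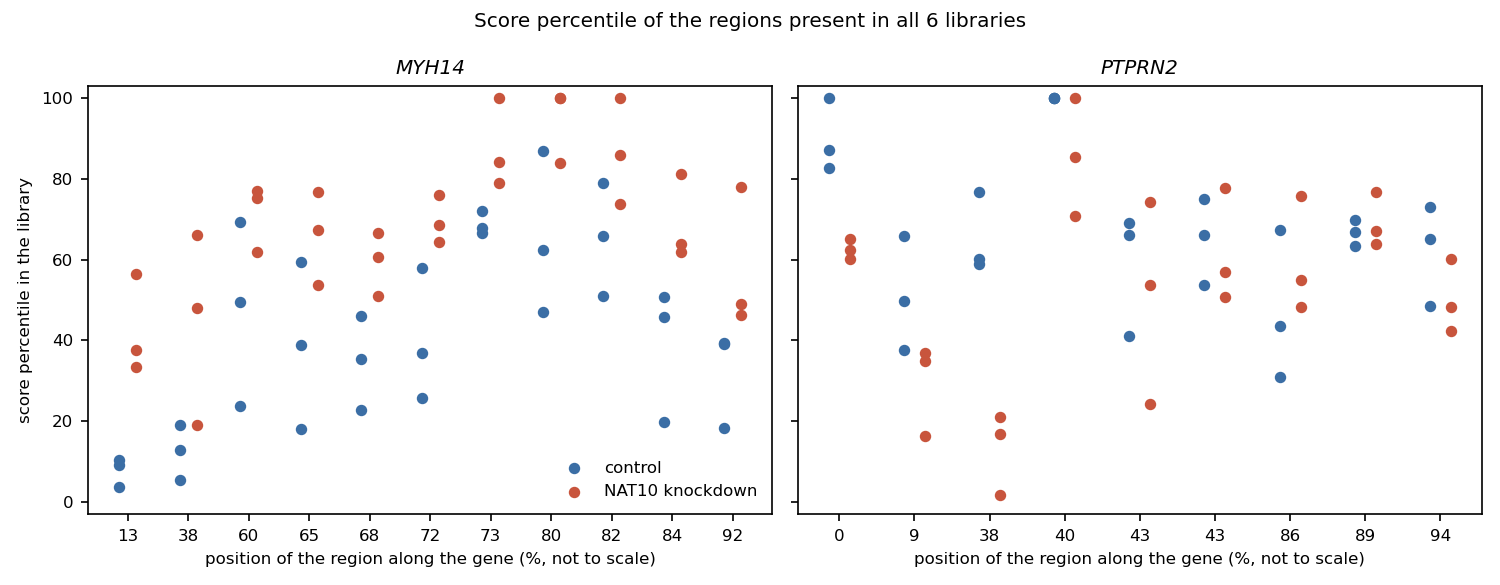
Score percentile in each library (y axis) of the regions in all 6 libraries of MYH14 (11 regions) and PTPRN2 (9 regions), ordered by position along the gene (x axis, % of its span, not to scale); each point is 1 library, blue control and red NAT10 knockdown. All 11 MYH14 regions have the higher mean in knockdown, while the 3 earliest PTPRN2 regions lie lower in knockdown.

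GOLGA3, a golgin, and MAD1L1 had 4 regions each with all knockdown libraries higher, out of 11 and 13. In GOLGA3 the regions chr12:132789027-132789290 and chr12:132786339-132786555 ranked between 81.1 and 84.6 and between 83.4 and 85.9 in control libraries and at 100, the top score, in all 3 knockdown libraries. Because of the jump in rank at that score, such a step can be a small change in score. DNMT1 had a positive difference in 9 of 9 regions and separate groups in 2. Other genes also had only positive differences, among them PRPF6 and UNC5B with 7 of 7 regions each. Regions of a gene are not independent replicates. The largest positive difference over the 536 regions was in DAB2IP, a Ras GTPase-activating protein, where chr9:121763505-121763649 ranked at 5.5, 6.7 and 7.4 in the controls and 57.7, 55.8 and 42.1 in knockdown libraries.

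PTPRN2 had 3 of 9 regions with all knockdown libraries lower. At chr7:158192327-158192495 the percentiles were 60.3, 76.7 and 58.8 in the controls and 16.8, 1.8 and 21.2 in knockdown libraries, a difference of -52.0 percentage points. The first region of the gene, chr7:158587558-158587788, ranked at 82.6, 87.2 and 100 against 65.2, 62.3 and 60.3. Later regions of the gene did not separate, and 2 of the 9 had the higher mean in knockdown. SVIL had 2 of 4 regions lower, at chr10:29480537-29480813 (34.1, 54.3 and 58.3 against 24.9, 17.0 and 19.9) and chr10:29470276-29470483 (40.4, 52.0 and 52.4 against 9.2, 16.5 and 39.0). The SVIL region whose sequence is printed above did not separate, with 38.5, 66.1 and 74.1 against 71.6, 45.5 and 76.9. EPB41L1, protein 4.1N of the membrane skeleton, had 1 at chr20:36194212-36194360 with 78.0, 59.7 and 68.9 against 32.4, 21.8 and 17.7. RPTOR had 1 lower region, and all 4 of its regions in all 6 libraries had the lower mean in knockdown.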

How the data were processed

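Per the labels, the deposited lists hold ac4C peaks in mRNA of 3 control and 3 knockdown immunoprecipitation libraries, with positions on GRCh38 by the submitters' processing notes. The authors called peaks in each library and gave each a score of unstated definition, used here only as a rank within a library, with scores of 3100 or more set to 100. Aligner, caller settings and annotation are not given in the sources used here. Genes were the 20037 protein-coding genes of RefSeq GRCh38.p14. Strand came from the promoter table for 15843 of them (48 members) and otherwise from the majority strand of the peaks in the span (11 members). In 99 of 99 genes of known strand with 60 or more peaks, that majority was right.

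Of the 59 genes 1 is counted but not reported singly here. Members, lists and named genes were chosen with earlier results of these data known. Named were the 12 genes with most peaks, the 3 leading members of each list, the called regions with the highest lowest score, the largest differences in mean peaks in each direction, the genes next to the threshold and those with most regions in all libraries. The genes named for region percentiles were chosen after their values were seen. Groups were compared with exact permutation and sign-flip tests, run first on simulated lists. Python 3.11.15, pandas 2.3.3 and numpy 2.4.6 were used.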

Additional observations from a re-analysis of the deposited data

How the results depend on the processing

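Of 126 values recomputed under an alternative, 81 stayed the same, which for a count means within 1.5 times the reported one and for a tested difference the same direction and side of the threshold. The 59 genes and 1180 regions became 123 and 2248 with 8 or more peaks per library and 29 and 661 with 12 or more. With the 50% of highest-scored peaks, regions limited to control numbered 7 and to knockdown 7. With lists cut to equal length by score, 1 gene (0 before) had fewer peaks in every knockdown library. Leaving out a library, regions limited to control ranged from 4 to 12 and to knockdown from 17 to 42. Genes with fewer peaks ranged from 0 to 3 and with more from 4 to 11. Regions ranking lower ranged from 25 to 52 and higher from 48 to 147. Leaving out a library loosens these criteria by construction. The width difference to other genes ranged from -50.6 to -43.9 bases and the percentile difference from 13.6 to 16.4, at an exact p of 0.0625, the smallest that 5 libraries allow. Against genes with a lowest count of 5 to 9, an alternative chosen after the data were seen, width differed by -1.5 bases (exact p = 0.125). Within members, width (knockdown minus control) was 0.5 bases without control replicate 1 and 0.917 without knockdown replicate 1, with a range from -4.25 to 0.917, and the percentile -2.5 and -0.246, with a range from -2.5 to 4.42; the cause was not tested. Under a replicate block the values stayed at -1.33 bases (exact p = 0.75) and 1.42 points (exact p = 1). Same-numbered libraries did not deviate together (correlations of -0.146, -0.15 and -0.000453 over 1901 genes), so the numbers were not taken as pairs.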
